A study of Mus musculus with 4 samples.

Results

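Acyl-CoA thioesterases cut the thioester bond of acyl-CoAs, the activated form in which fatty acids are used by cells, and release a free acid and coenzyme A. They run against the acyl-CoA synthetases, and through their placement in mitochondria, cytosol and peroxisomes they help set the local supply of acyl-CoAs and of free coenzyme A. Type I enzymes are encoded by a cluster of similar genes, several of which are known targets of PPARalpha, a fatty acid receptor of the liver, while type II enzymes share the hotdog fold. The members described here are the Acot family genes Acot1, Acot2, Acot3, Acot4, Acot7, Acot8, Acot9, Acot12 and Acot13, chosen by symbol. A gene was counted as measured where a probe set of the array named its symbol alone. That held for 8 of the 9, with 1 probe set each, out of 18820 genes measured in this way. Acot8, a peroxisomal enzyme of broad substrate range, was named only together with Snx21.

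The study infused acetate, propionate or butyrate, short-chain fatty acids that differ in chain length (acetate the shortest, butyrate the longest), into the cecum of mice and profiled the liver. All mice were male C57Bl/6J aged 16 to 17 weeks, kept for 6 weeks on a semi-synthetic diet with palm oil as its fat, fitted with a permanent cecal catheter and fasted in the morning before the infusion. The growth protocol also gives an age of 2 months for all groups. The groups were a phosphate-buffered saline control (6 mice), [1-13C]acetate (6 mice), [2-13C]propionate (6 mice) and [2,4-13C2]butyrate (4 mice), each infused for 6 h at 0.2 ml/h. The acids were sodium salts at 0.3 M and entered at 2.4 mmol/h/kg, while no source used here states how much sodium the saline held. RNA of the mice of a group was pooled and each pool was measured on 1 array, so the spread between mice is unknown, no difference between pools carries a test or an error, and the order of any pair of neighbouring levels could not be set against a spread. The number of arrays limits the precision.

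The values are log2 expression levels, on which a difference of 1 is a 2-fold change. A gene was called where 2 pools differed by at least 1.5-fold (0.58 on this scale) in either direction. The shares of all genes called were taken over the 9410 genes whose mean level lay at or above 5.55, the median over all genes, and all 8 measured members lay above that floor. Levels were compared between pools for a gene, and not between genes, whose probes differ. The processing of the deposited values makes the arrays' distributions alike, and their medians over all probe sets were 5.11 to 5.12. All 9 measured hepatocyte markers, such as Alb and Apoa1, had levels above 12.8 in every pool, as the liver label has it. In bulk RNA, fewer cells of a type and less RNA per cell cannot be told apart.

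The mitochondrial thioesterase genes Acot2 and Acot9 were higher in the acetate and propionate pools than in the control pool, and the other measured members differed from control by less than 1.5-fold with every acid. Acot2 was 2.64-fold higher with acetate and 2.02-fold with propionate, and Acot9 was 1.91-fold and 1.79-fold higher. With butyrate no member was called against control. The called members were thus 2 of 8 with acetate, where 1.14% of all tested genes were called, 2 of 8 with propionate, where 1.11% were, and 0 of 8 with butyrate, where 1.12% were. The 3 comparisons share the control array. Set against the average of the remaining 3 pools instead, which include the other acids, Acot9 was no longer called with acetate (0.51 on the log2 scale) and Acot1 was (0.64), neither Acot2 (0.52) nor Acot9 (0.39) was called with propionate, and Acot2 was called lower with butyrate (-0.71).

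**Figure D1:**
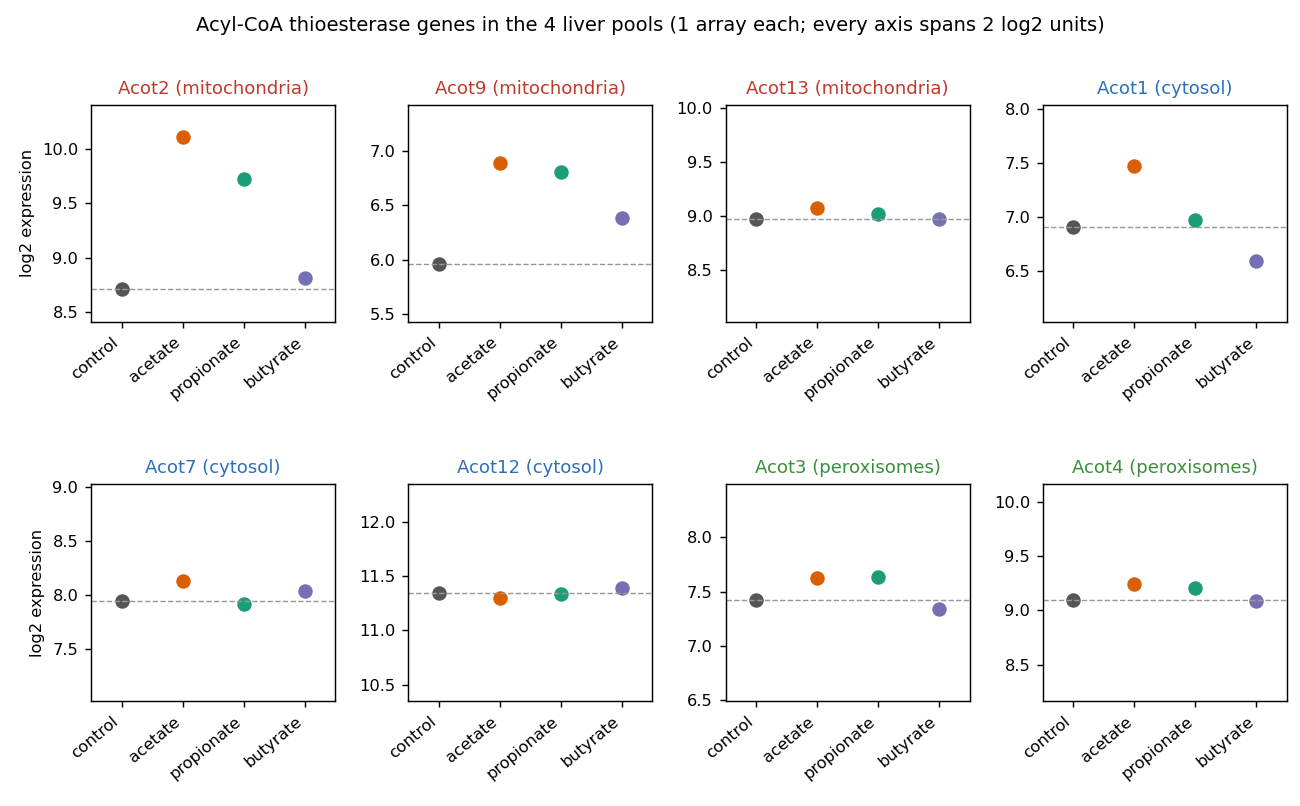
Log2 expression of the 8 measured thioesterase genes in the control, acetate, propionate and butyrate pools, 1 point per array, with the dashed line at the control level and titles coloured by compartment. Acot2 and Acot9 stand above control with acetate and propionate, Acot1 is highest with acetate and lowest with butyrate, and Acot12 and Acot13 lie close to the control line in all pools.

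Acot2 encodes the long-chain acyl-CoA thioesterase of the mitochondrial matrix. Its level was 8.71 in the control pool, 10.1 with acetate, 9.73 with propionate and 8.81 with butyrate. The acetate and propionate pools were the high ones, and the butyrate pool lay 0.10 above control. Among the 9410 tested genes Acot2 held rank 3 from the highest ratio with acetate and rank 7 with propionate, while with butyrate 40.9% of the tested genes lay as far from control or farther.

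Acot9 encodes a second mitochondrial thioesterase, of the hotdog family, which acts on short-chain as well as longer acyl-CoAs. Its level was 5.96 in the control pool, 6.89 with acetate, 6.80 with propionate and 6.38 with butyrate. All 3 acid pools were above control, acetate and propionate close together and butyrate between them and the control, with a ratio of 1.34-fold. The control level lay close to the floor of 5.55. Another probe set names Acot10 together with Acot9 and lay below the floor in every pool. Its log2 ratios to control were 0.67, 0.41 and -0.018 with acetate, propionate and butyrate. Acot9 held rank 17 with acetate, 15 with propionate and 169 with butyrate among the tested genes.

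Acot13 (also called Them2), whose product is associated with mitochondria and interacts with the phosphatidylcholine transfer protein, did not share these differences. Its levels were 8.98, 9.08, 9.02 and 8.98 in the control, acetate, propionate and butyrate pools, a range of 0.10 over the 4 arrays. The 3 mitochondrial members therefore split into a pair that was higher with acetate and propionate and Acot13, whose largest ratio to control was 0.10.

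Among the cytosolic members, Acot1 had the largest differences. It encodes a long-chain acyl-CoA thioesterase closely related in sequence to Acot2 and lies next to it in the genome. Its level was 6.91 in the control pool, 7.47 with acetate, 6.97 with propionate and 6.60 with butyrate. The acetate pool was high and the butyrate pool low. The acetate ratio of 1.47-fold (0.56 on the log2 scale) lay just under the 1.5-fold line, at rank 68 from the highest, and the butyrate ratio was -0.31. With propionate, where Acot2 was 2.02-fold above control, Acot1 was 1.04-fold above it.

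The other cytosolic genes differed less. Acot7, a long-chain acyl-CoA thioesterase best known from brain, had levels of 7.95, 8.13, 7.91 and 8.03 in the control, acetate, propionate and butyrate pools, with its largest ratio at 0.18 for acetate. Acot12 encodes the cytosolic enzyme of liver that splits acetyl-CoA into acetate and coenzyme A, so that its product is one of the infused acids. Its levels were 11.34 in control, 11.30 with acetate, 11.33 with propionate and 11.39 with butyrate. The range over the 4 arrays was 0.088, the narrowest of the 8 genes, and the acetate pool was the lowest.

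Both measured peroxisomal members were slightly above control with acetate and propionate and slightly below it with butyrate. Acot3, which acts on medium- and long-chain acyl-CoAs, had levels of 7.42, 7.62, 7.64 and 7.34 in the control, acetate, propionate and butyrate pools. Acot4, which in the mouse hydrolyses succinyl-CoA and related dicarboxylic acyl-CoAs, had levels of 9.09, 9.24, 9.20 and 9.08. No ratio of either gene to control passed 0.22 on the log2 scale, and with propionate 15.3% of the tested genes lay as far from control as Acot3 or farther. The 2 probe sets that named Acot8 together with Snx21 had ratios between -0.12 and 0.15 over the 3 acids, and the gene behind these values cannot be told apart from Snx21.

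Over the 8 measured members the median log2 ratio to control was 0.19 with acetate, 0.087 with propionate and 0.024 with butyrate, beside medians over all tested genes of -0.011, -0.034 and -0.0036. With acetate 7 of the 8 lay above control, with propionate 6 and with butyrate 5, where 46.2%, 39.2% and 48.7% of all tested genes lay above it. The counts with propionate and butyrate depend on the processing, since some ratios lay close to the control level. Median centring turned Acot7 (-0.033 to 0.0027) and Acot12 (-0.0091 to 0.026) positive with propionate. It turned Acot13 negative with butyrate (0.00059 to -0.0030). Without Acot2 and Acot9 the medians of the other 6 were 0.16, 0.053 and -0.0043. Small positive ratios with acetate were thus present in most of the family, while those past 1.5-fold were those of the mitochondrial pair.

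**Figure D2:**
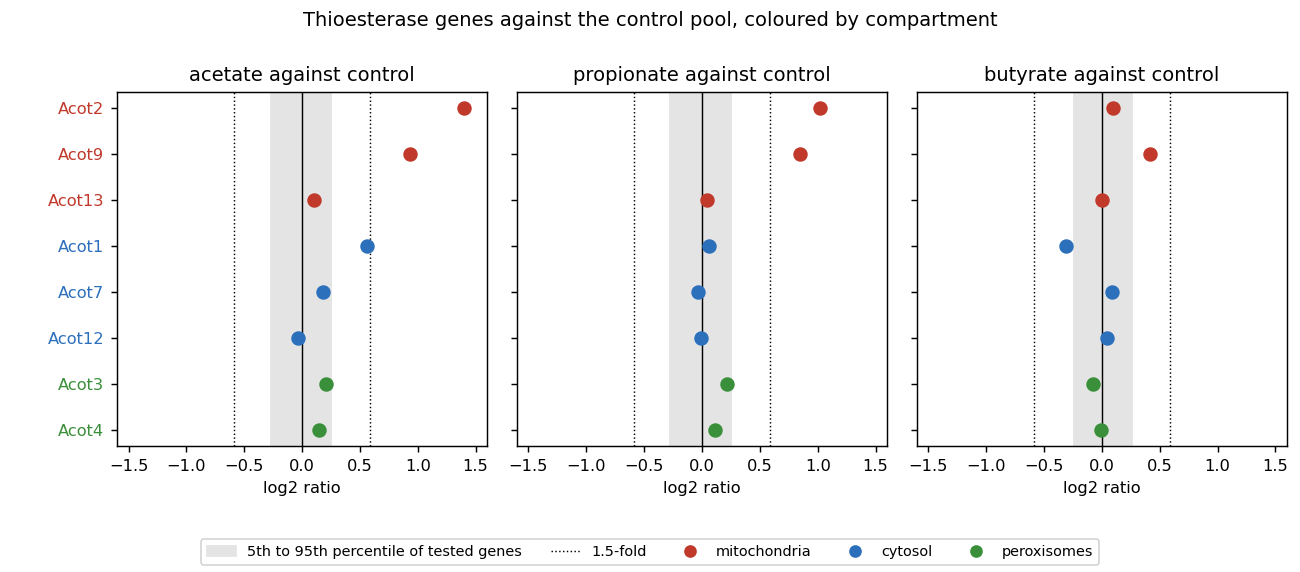
Log2 ratio of each acid pool to the control pool (x axis) for the 8 measured thioesterase genes (y axis, coloured by compartment); the grey band holds the 5th to 95th percentile of the 9410 tested genes and dotted lines mark 1.5-fold. Acot2 and Acot9 lie beyond the dotted line with acetate and propionate, Acot1 lies just inside it with acetate, and with butyrate Acot9 at 0.42 and Acot1 at -0.31 lie outside the grey band.

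The acids were given at the same concentration, rate and duration, so their pools could be set against each other directly, in 3 pairs with no test. Between propionate and acetate, 0 of 8 members were called, and 0.553% of all tested genes were. Acot1 and Acot2 were lower with propionate by 0.50 and 0.39 on the log2 scale (1.41-fold and 1.31-fold higher with acetate), while Acot9 differed by 0.089 and Acot3 by 0.014. For Acot1 the difference lay at rank 29 from the lowest among the tested genes.

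The largest differences between acids, those of Acot2 and Acot1, were with butyrate. This did not hold for each member, since that of Acot7 was largest between propionate and acetate (-0.21). Against acetate, 2 of 8 members were called lower with butyrate, and 1.90% of all tested genes were called in either direction. Acot2 was 2.46-fold higher with acetate than with butyrate and Acot1 1.83-fold, at ranks 18 and 33 from the lowest ratio of butyrate to acetate. Acot9 was 1.43-fold higher with acetate, under the 1.5-fold line. Against propionate, 1 of 8 was called, where 0.956% of all tested genes were. That gene was Acot2, 1.89-fold higher with propionate. Acot9 and Acot1 were 1.34-fold and 1.30-fold higher with propionate, and Acot3 was 1.23-fold higher. Acot7 and Acot12 lay above propionate with butyrate, by 0.12 and 0.057. In the order of chain length the levels of Acot1, Acot2, Acot4, Acot9 and Acot13 stood in 1 sequence, acetate above propionate above butyrate. Acot12 stood in the reverse sequence, and Acot3 and Acot7 in neither. The share of all tested genes in either sequence was not counted. The steps differed between genes, and those of Acot4 and Acot13 were at most 0.12. For Acot2 the wide one lay between propionate and butyrate (0.92, against 0.39 between acetate and propionate), and for Acot1 the step from acetate to propionate was 0.50 and the next 0.38.

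**Figure D3:**
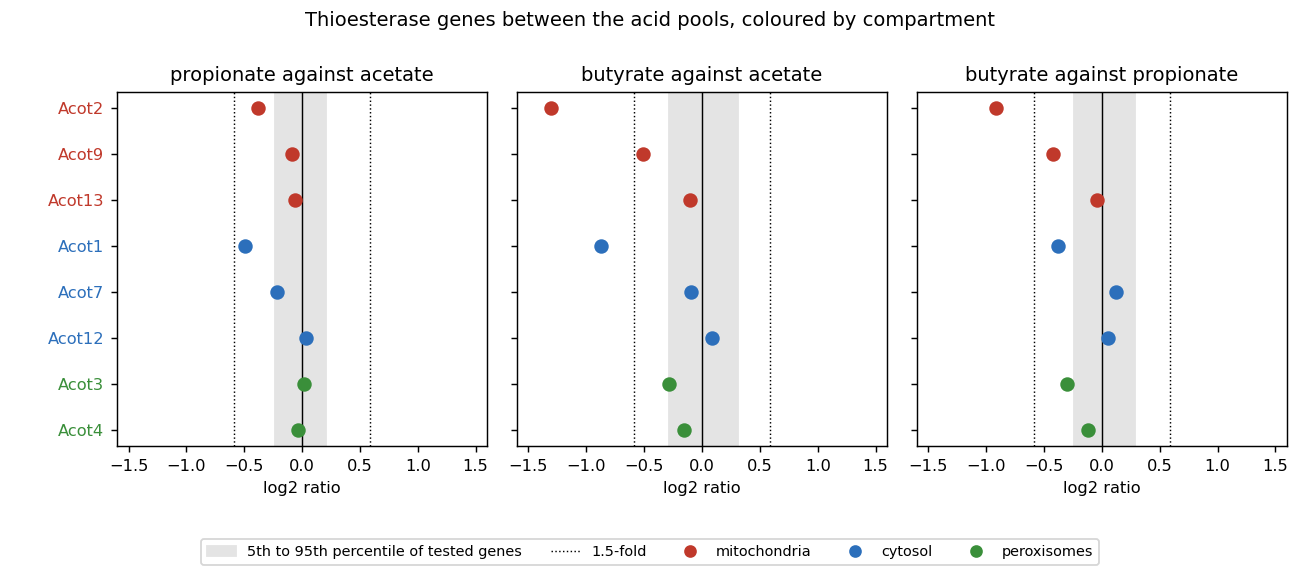
Log2 ratio between pairs of acid pools (x axis) for the 8 measured thioesterase genes (y axis, coloured by compartment), with the grey band at the 5th to 95th percentile of the tested genes and dotted lines at 1.5-fold. Acot2 lies farthest to the left in both comparisons with butyrate, at -1.30 and -0.92, and no gene passes 1.5-fold between propionate and acetate.

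The type I genes lie in a row on chromosome 12. In the RefSeq table (assembly GRCm38.p6, used for gene order) their order is Acot2, Acot1, Acot4, Acot3, Acot5 and Acot6, with 0 other protein-coding genes between the first and the last. Along this row the log2 ratios to control with acetate were 1.40, 0.56, 0.15, 0.21, 0.017 and 0.14. With propionate they were 1.02, 0.063, 0.11, 0.22, 0.20 and 0.043. Acot2, the first gene of the row, thus had the high value in both pools and its neighbour Acot1 a smaller one with acetate alone. Acot5 and Acot6, which are not among the members, had mean levels below the floor, so their ratios are of values near background. Short probes can bind transcripts of close paralogs, and within this row the share of a paralog in a probe set's value was not tested. The genes outside the row lie elsewhere, Acot7 on chromosome 4, Acot12 and Acot13 on chromosome 13 and Acot9 on the X chromosome.

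Promoter windows of the pair that was higher with acetate and propionate (Acot2 and Acot9), of the neighbour Acot1, and of Acot12 and Acot4, which carry the closest matches to the searched repeat, are shown so that the sequences can be read beside the ratios. The 250 bases before the annotated start are printed, on the plus strand of GRCm38.p6, from RefSeq. They lie at chr12:83987611-83987860 for Acot2, chrX:155262193-155262442 for Acot9, chr12:84009252-84009501 for Acot1, chr13:91741271-91741520 for Acot12 and chr12:84038129-84038378 for Acot4. Capitals mark the letters CCAAT on either strand and matches, on either strand and with at most 2 mismatches, to AGGTCANAGGTCA, the direct repeat of a nuclear receptor hexamer known from PPARalpha and HNF4 binding. The motifs share no overlap in these windows.
Acot2: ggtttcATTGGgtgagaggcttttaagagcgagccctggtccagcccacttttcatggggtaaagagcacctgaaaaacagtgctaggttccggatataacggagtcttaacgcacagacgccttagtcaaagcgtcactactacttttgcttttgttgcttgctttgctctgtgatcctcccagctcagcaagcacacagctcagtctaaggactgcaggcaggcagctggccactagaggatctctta
Acot9: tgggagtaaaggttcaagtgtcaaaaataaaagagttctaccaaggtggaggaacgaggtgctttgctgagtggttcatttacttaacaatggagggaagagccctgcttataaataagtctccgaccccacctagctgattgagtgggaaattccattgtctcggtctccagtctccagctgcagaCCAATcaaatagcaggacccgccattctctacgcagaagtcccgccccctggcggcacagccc
Acot1: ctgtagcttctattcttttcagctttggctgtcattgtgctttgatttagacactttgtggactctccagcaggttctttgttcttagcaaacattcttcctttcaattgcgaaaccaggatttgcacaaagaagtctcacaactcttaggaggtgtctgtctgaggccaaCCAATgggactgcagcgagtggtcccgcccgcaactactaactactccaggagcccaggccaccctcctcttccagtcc
Acot12: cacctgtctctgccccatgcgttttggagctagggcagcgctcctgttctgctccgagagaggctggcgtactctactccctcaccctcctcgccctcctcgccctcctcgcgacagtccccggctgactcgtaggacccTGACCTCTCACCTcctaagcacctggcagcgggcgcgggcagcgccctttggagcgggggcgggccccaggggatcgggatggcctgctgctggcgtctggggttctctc
Acot4: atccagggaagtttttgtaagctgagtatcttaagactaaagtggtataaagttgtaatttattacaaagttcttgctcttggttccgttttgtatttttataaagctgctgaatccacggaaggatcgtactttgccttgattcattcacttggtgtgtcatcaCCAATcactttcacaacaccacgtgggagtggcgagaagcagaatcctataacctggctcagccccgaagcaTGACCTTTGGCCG

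Over windows of 300 bases (250 before and 50 after the start), 8 of the 9 members had an entry, Acot3 with 2 starts, and Acot13 had none in the table used. A match to the direct repeat with at most 2 mismatches was found for Acot12, with 1 mismatch and its first base 110 bases before the start, and for Acot4, with 2 mismatches and 13 bases before it. Among all 32851 promoter windows 3.86% held a match with at most 2 mismatches and 0.554% one with at most 1. The closest matches of Acot2 and Acot9 had 3 and 4 mismatches, which 24.6% and 79.8% of all windows reached. The gene with the closest match, Acot12, also had the narrowest range of levels over the 4 pools. A link between match and range was not tested. CCAAT stood in the windows of Acot2, Acot9, Acot1, Acot4, Acot3 and Acot8 and in 37.4% of all windows. A match describes letters in these windows and no binding.

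Other genes of acyl-CoA metabolism were taken from lists of 6 groups, 87 different genes in all. Of these 87, 2 were called higher and 0 lower with acetate, 0 with propionate in either direction, and 1 lower with butyrate. Of all tested genes 1.14%, 1.11% and 1.12% were called. The same shares stand beside the counts called in the single lists below. The medians of the 87 were 0.026, -0.0072 and 0.021. The called genes were Cidec, which encodes a lipid droplet protein, at 0.76 with acetate, and Pdk4, the kinase that switches off pyruvate dehydrogenase, at 0.68 with acetate and -0.72 with butyrate. Pdk4 had a level of 8.12 in control, 8.80 with acetate, 8.12 with propionate and 7.40 with butyrate. Its high acetate and low butyrate values match the high and low pools of Acot1, and its propionate ratio to control was -0.0021.

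The enzymes that run against the thioesterases did not show the same differences. Of 15 measured acyl-CoA synthetases 0 were called with any acid, where 1.14%, 1.11% and 1.12% of all tested genes were. A list of this length could have 0 called at such shares. Above control lay 5, 4 and 7 with acetate, propionate and butyrate, where 46.2%, 39.2% and 48.7% of all tested genes did. The medians were -0.044, -0.030 and -0.010. Acss2, which forms acetyl-CoA from acetate in the cytosol, had the largest differences there, at -0.23, -0.23 and -0.50. The fatty acid transport protein and synthetase Slc27a1 followed at -0.19, -0.25 and -0.40. Acsl1, Acsl3 and Acsm3 had no value of their own, because no probe set named them alone.

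Genes that make or break down coenzyme A, the product that thioesterases release, had medians of -0.069, -0.10 and -0.060, with 0 of 12 called with any acid. With propionate 11 of the 12 lay below control, led by the pantothenate kinase Pank1 (-0.30) and the next enzyme of the synthesis pathway, Ppcs (-0.28). Of all tested genes 39.2% lay above control with propionate. The 9 measured relatives of the members, thioesterases and acyltransferases, had medians of 0.11, 0.064 and 0.013, with 0 called. Them4, a mitochondrial thioesterase, was at 0.24 with acetate, 0.030 with propionate and 0.00040 with butyrate, and Acot11, with a mean level below the floor, at -0.14, -0.27 and 0.060.

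Fatty acid oxidation genes lay close to control. Of 18 measured mitochondrial ones 0 were called, with medians of 0.039, -0.023 and 0.041 for acetate, propionate and butyrate. The carnitine transporter Slc22a5 (0.23) and the trifunctional protein subunit Hadhb (0.20) had the largest differences, both with acetate. Of 17 peroxisomal ones 0 were called, with medians of 0.028, 0.0040 and 0.071. Ehhadh, the bifunctional enzyme of peroxisomal oxidation and a known PPARalpha target, stood at 0.46 with acetate, 0.24 with propionate and -0.014 with butyrate, and the fatty acid importer Abcd2 at -0.38 with butyrate. The 16 other PPARalpha targets had medians of 0.20, 0.015 and 0.037. Of them 13, 11 and 9 lay above control, where 46.2%, 39.2% and 48.7% of all tested genes did. Cidec and Pdk4 belong to this list, so 2 of the 16 were called higher with acetate, where 1.14% of all tested genes were called. With propionate 0 were called, and with butyrate 1 was called lower. The highest ratio of the list with propionate was 0.56, under the 1.5-fold line. Acot2 and Acot9 were thus at larger ratios with acetate and propionate than any of the 87 genes of these lists.

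**Figure D4:**
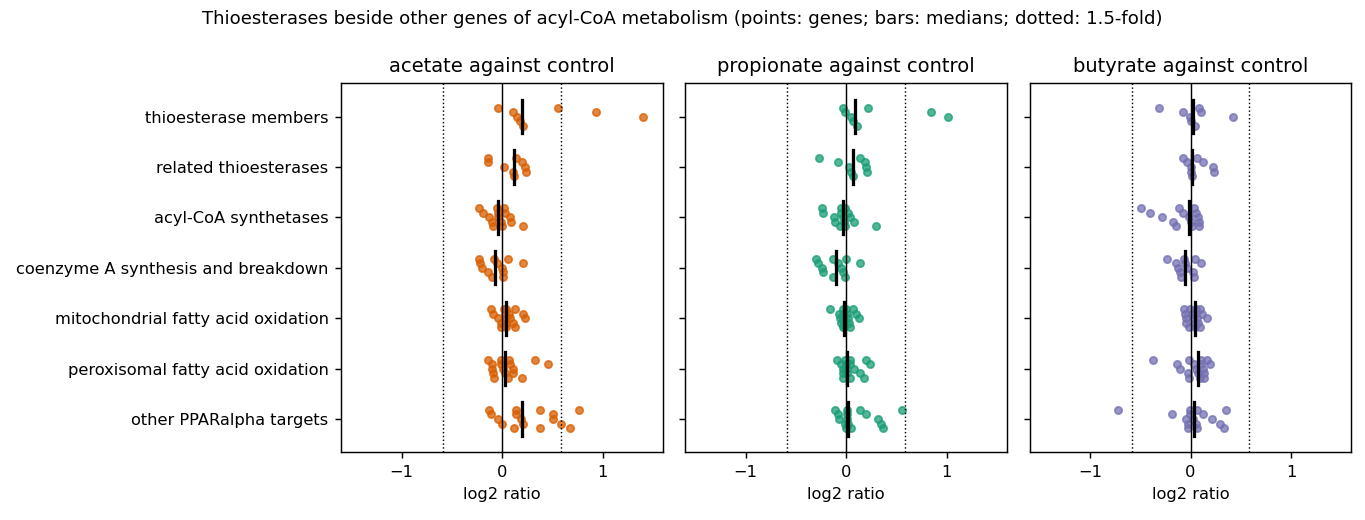
Log2 ratio to control (x axis) of each measured gene (points) in the thioesterase members and 6 other groups of acyl-CoA metabolism (y axis), by acid, with bars at the medians and dotted lines at 1.5-fold. The points farthest to the right with acetate and propionate are Acot2 and Acot9, and the groups' medians lie between -0.10 and 0.20.

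Genes with ratios most like those of Acot2 were sought among the 9402 tested genes outside the family, by the Euclidean distance over the 3 log2 ratios to control. The nearest was D17H6S56E-5, at 1.34, 0.90 and 0.051 with acetate, propionate and butyrate (distance 0.14). The glutathione transferase Gstm3 followed at 1.30, 0.91 and -0.23, then the mitotic cyclin Ccnb2 at 1.13, 0.84 and 0.34, the matrix protein gene Dpt at 1.07, 0.74 and 0.21, and the tubulin Tuba8 at 1.13, 1.06 and -0.28. Acot9 lay at a distance of 0.59 from Acot2, farther than these 5. For Acot9, searched in the same way after its values were seen, the nearest were Fstl1 (0.84, 0.73 and 0.35), Rgs2 (0.80, 0.72 and 0.40), Ccnb2, Dpt and Anxa2 (0.90, 0.70 and 0.18). With 3 ratios that share 1 control array, nearness describes these pools and is no measure of a relation between genes.

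**Figure D5:**
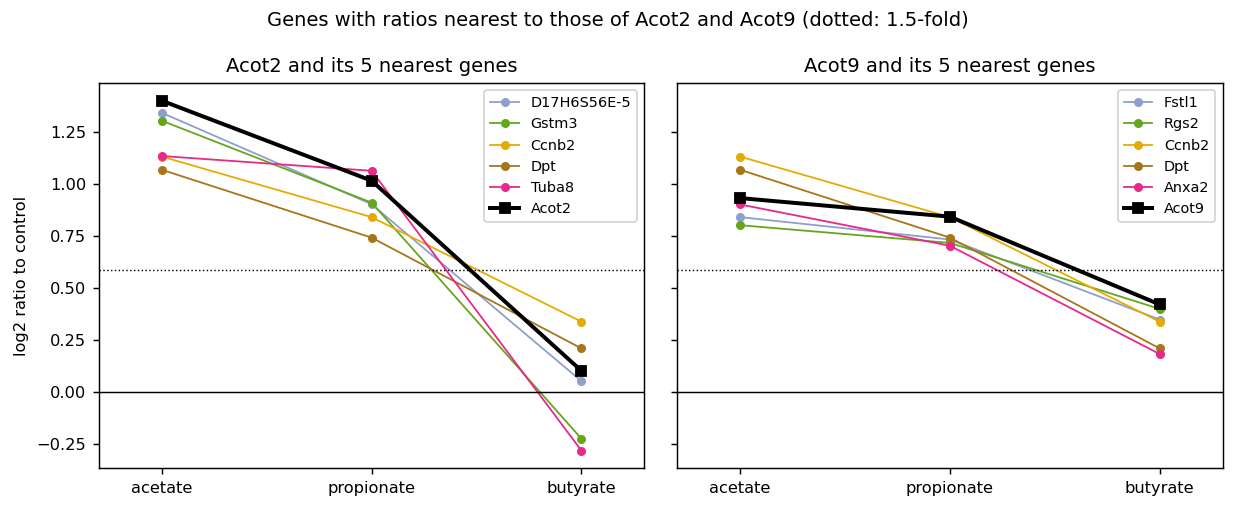
Log2 ratio to control (y axis) with acetate, propionate and butyrate (x axis) for Acot2 (left) and Acot9 (right), in black, and for the 5 tested genes nearest to each; the dotted line marks 1.5-fold. Each plotted gene passes 1.5-fold with acetate and propionate and none does with butyrate.

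Markers of other cells moved between the same pools, and their part in the thioesterase values was not tested. Stellate cell and fibroblast markers, a list added after the data were seen, lay above control in 13 of 15 cases with acetate, 14 with propionate and 11 with butyrate, with medians of 0.41, 0.26 and 0.095. Their summed level on the linear scale was 4918, 5924, 5721 and 5305 in the control, acetate, propionate and butyrate pools. Most of it came from Dcn, at log2 levels of 11.59, 11.86, 11.82 and 11.73. The pools stood in this sum in the order seen for Acot2, Acot9 and Acot13, while with butyrate 4 of the 15 markers lay below control. Mitosis genes, added in the same way, had medians of 0.66, 0.60 and 0.18 over 9 measured genes, 8 of them below the floor in control. Their summed levels were 262, 413, 405 and 340, with the pools in the same order.

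Skeletal muscle markers, from a tissue that also uses fatty acids, were below control in 11 of 11 cases with butyrate and called in 10 (median -1.77), with summed levels of 1498, 1412, 1730 and 346 in the 4 pools in the same order. The butyrate pool, the lowest for Acot1, Acot3 and Acot4, was the lowest for muscle as well. Acot3 and Acot4 were there at only -0.079 and -0.0092 from control, where 50.8% and 93.4% of the tested genes lay as far or farther. Acot2 and Acot9 were lowest in the control pool. Kupffer cell markers, from the resident macrophages of the liver, had summed levels of 3934, 3659, 4649 and 5664, lowest in the acetate pool where Acot2, Acot9 and Acot1 were highest. Neutrophil markers were likewise lowest with acetate and highest with butyrate, at 295, 183, 264 and 780. Of the 8 markers 6, 8, 7 and 2 lay below the floor in these pools, so the lower sums are near background. Pancreatic acinar markers were below control in 7 of 7 cases with each acid, at 9224, 5425, 6100 and 7007. Intestinal markers summed to 1851, 2020, 1917 and 2620 over 8 genes. With butyrate 2 of the 8 were called, the mucin Muc2 (2.98) and Lypd8 (2.97), and the other 6 lay between 0.013 and 0.37. Adipocyte markers summed to 7408, 7323, 7533 and 7360 over 7, nearly all of it from Pck1, which hepatocytes express too. Of the others, the adipokine genes Retn (0.015, -0.84 and -1.09) and Adipoq (-0.15, -0.60 and -0.74) were more than 1.5-fold below control with propionate and butyrate, both at mean levels below the floor. Over all 7 the medians were -0.020, -0.082 and -0.21. With propionate 2 of the 7 lay above control, Lep at 0.28, also below the floor, and Pck1 at 0.036. Hepatocyte markers differed from control by medians of 0.0046, 0.017 and 0.016.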

How the data were processed

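Liver RNA of 22 mice in 4 pools was measured on 4 arrays. Per probe set, the authors deposited a log2 expression level for each array, for which the submitters' processing notes name RMA, with no version or settings given in the sources used here. Because RMA makes the arrays' distributions alike, a shift of all genes in a pool could not be seen. Of 35556 probe sets, 21218 had 1 symbol in GEO's platform annotation, 1881 several and 12457 none, and only the first kind entered gene values, averaged per symbol. All 8 member probe sets matched the RefSeq table (GRCm38.p6) by Entrez ID and symbol. Each comparison was the difference of 2 arrays' log2 values, with no test. Named genes were the members, list genes past 1.5-fold or among the 2 largest of a list, and the 5 genes nearest to Acot2. The genes nearest to Acot9 and the examples of marker genes were named after their values were seen. The members and lists were chosen with earlier results of these data known. The step that calls ratios was tested on simulated data with planted changes. Alternatives were cyclic loess (limma 3.58.1 in R 4.3.3), median centring, another reference, other fold limits, the brightest probe set and the level floor. Other steps used Python 3.11.15 with pandas 2.3.3.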

Additional observations from a re-analysis of the deposited data

Results flagged for a closer look

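A probe set outside the comparisons, because it names Acot10 and Acot9 together, was 1.59-fold above control with acetate (log2 ratio 0.67), past the 1.5-fold line. Its levels were 3.89 in control, 4.56 with acetate, 4.29 with propionate and 3.87 with butyrate, all below the level floor of 5.55, so the ratios are of values near background. The propionate ratio was 0.41 and the butyrate ratio -0.018. Acot10, on chromosome 15, is a close copy of Acot9, and which of the genes gave the signal was not tested.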

How the results depend on the processing

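Each of the 6 counts of called members was unchanged with cyclic loess, with median centring, with the brightest probe set per gene and with members above the floor alone. The last 2 of these settings could change no member's value, since each measured member had 1 probe set and lay above the floor. No called member ratio changed sign with cyclic loess, median centring or another reference. Of 120 member ratios over these 3 settings, 9 turned sign, 2 with cyclic loess, 3 with median centring and 4 with the other reference. Of these 9, 1 was called after the turn, that of Acot2 with butyrate, which went from 0.10 to -0.71 with the other reference. With the average of the remaining 3 pools as the reference, itself partly made of the other acids, the counts were 2 with acetate (Acot2 and, in place of Acot9 at 0.51, Acot1 at 0.64; 0.680% of all tested genes), 0 with propionate (Acot2 at 0.52, Acot9 at 0.39; 0.446%) and 1 with butyrate (Acot2; 0.797%). At 1.2-fold, 3 members were called with acetate against control (Acot1, Acot2 and Acot9; 9.91% of all tested genes), 2 with propionate (10.2%), 2 with butyrate (8.60%), 2 between propionate and acetate (6.91%), 4 between butyrate and acetate (13.5%) and 4 between butyrate and propionate (10.7%). At 2-fold, 1 member, Acot2, was called with acetate (0.223%), with propionate (0.117%) and between butyrate and acetate (0.457%), and 0 between butyrate and propionate (0.276%). No replicate could be left out, because each group was 1 array, and pooled RNA hides which mice carried a difference. Of the measured members, Acot9 lay nearest to the level floor, with a mean of 6.51.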
